A study of Caenorhabditis elegans with 41 samples.

Results

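The OP37 strain was compared gene by gene with L2-L3 larvae to find which gene classes differed in worms that carry extra copies of a tagged pha-4 gene. The comparison used 9 mRNA-seq libraries of the 41 samples in the series: 3 of OP37, 4 of SP117 L2-L3 larvae and 2 of BC4289 L2-L3 larvae. The members are the 12895 genes, of 20327 kept, whose mean FPKM over the 9 libraries was at least 1. FPKM is the number of fragments per unit of transcript length and of sequencing depth, so that a level can be compared between genes of different length. OP37 carries wgIs37, a fosmid with pha-4::TY1::EGFP::3xFLAG and a wild type copy of unc-119 that is integrated at a place not mapped here, and the worms look wild type. SP117 has the genotype mnDp10 (X;I); unc-3(e151) X, with part of X present in extra copies, and BC4289 carries sDp10 (IV;X), with part of IV in extra copies. The larvae were grown for 24 h at 22°C from starved L1 worms. No wild type library was used here, and each group is a single strain, so that strain, growth and library preparation cannot be told apart in any difference below.

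pha-4 encodes a forkhead (FoxA) transcription factor that specifies the pharynx, the feeding organ of the worm, and it also acts in the gut and other tissues of larvae and adults. The pharynx is built of muscle, gland, epithelial and neuronal cells, each of which expresses its own set of genes. The larval cuticle is rebuilt at every molt, and many genes for collagens and other matrix proteins are transcribed in a pulse within each larval stage.

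The labels call the OP37 libraries embryos, but the libraries ranked genes as larvae do. Over 14253 genes, Spearman's rho of OP37 libraries was 0.906 to 0.937 with the L2-L3 libraries, 0.502 to 0.704 with the embryo libraries and 0.592 to 0.648 with the young adult libraries of the series. OP37 replicate 3 stood apart. Its rho was 0.912 and 0.929 with the other OP37 libraries, which correlated at 0.974 with each other, and larval libraries correlated among themselves at 0.941 to 0.980. Of the marker lists, 17 germline and meiosis genes, 8 oocyte and eggshell genes, 4 early embryo regulators and 1 sperm gene passed the filter and none of them was called, and none of 6 vitellogenin genes passed it. Relative depth, estimated from the smallest steps between FPKM values, was 47.6% to 95.3% of the deepest library in OP37 and 19.3% to 100% in the larvae. Since whole worms were sequenced, fewer cells of a type and less RNA per cell cannot be told apart.

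In OP37, 478 genes were higher and 907 genes were lower than in L2-L3 larvae (limma, adjusted p under 0.05 on log2(FPKM + 0.1), with the SP117 and BC4289 means weighted equally). These are 3.71% and 7.03% of the 12895 genes tested, and 10.7% for either direction. All 3 OP37 libraries lay above all 6 larval libraries for 844 genes (6.55%), of which 430 were called higher, and below them for 1206 genes (9.35%), of which 778 were called lower. The median log2 ratio over all genes was -0.01. The counts moved with single libraries. They were 1433 higher and 1197 lower without OP37 replicate 3, 121 and 502 without OP37 replicate 1, and 101 and 265 without BC4289 replicate 2. In all 9 fits that each left out 1 library, 91 of the higher genes and 246 of the lower genes were called. The share of called genes that were higher was 34.5%, against 91.4% on the deposited TPM values, 47.4% after quantile normalization and 45.3% after a trend with gene length was removed. In the OP37 libraries the FPKM values summed to 890473 to 980831, against 1282338 to 1413023 in SP117 and 1537237 and 1550598 in BC4289 larvae. On TPM the median of all genes moved to 0.62. The medians of the lists below are therefore to be read against the median of all genes, whereas counts of called genes depend on the scaling.

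The length of the gene moved with the result. Among 440 genes that span up to 500 bp from start to end the median log2 ratio was -0.67, among 1351 genes of 500 to 1000 bp it was -0.45, and it was 0.16 among 1319 genes of over 8000 bp. The share of genes called lower was 17.3% and 19.8% in the 2 shortest classes and 1.67% in the longest. OP37 replicates 1 and 2 were the lowest of the 9 libraries for genes of up to 500 bp, whereas OP37 replicate 3 was the lowest for each class of longer genes, as the plot of library deviations by gene span shows. With this trend removed from each library, 637 genes were higher and 770 lower, and 417 of the higher and 607 of the lower genes were called in both fits. The part of this trend in each class below was not tested gene by gene, and counts with the trend removed are given beside some of the classes it moved. This fit was added after the values had been seen.

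**Figure D1:**
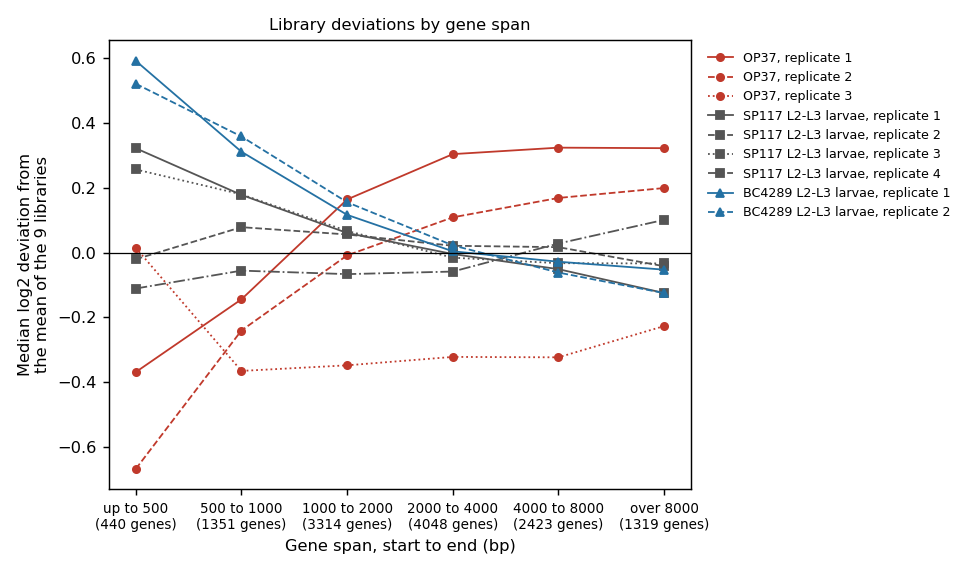
Median log2 deviation of each library (y axis) from the mean of the 9 libraries for genes grouped by span in bp (x axis, with the number of genes). OP37 libraries are red, SP117 larvae grey and BC4289 larvae blue. OP37 replicate 2 lay at -0.67 for genes up to 500 bp, against 0.59 for BC4289 replicate 1.

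Windows set around the parts duplicated in the larval strains were read separately. Their limits were rounded, and those of IV are wider than the duplication that the paper describes for BC4289. The copy number of single genes was not measured here, so some genes in the windows may not be duplicated. On X from 12 Mb, which is present in extra copies in SP117, 7 of 556 genes were higher in OP37 and 76 were lower, with a median log2 ratio of -0.56 against SP117 and -0.04 against BC4289. In the windows of IV around 11 to 13 Mb and 15 to 16 Mb, 12 of 375 genes were higher and 22 lower, with medians of 0.00 against SP117 and -0.17 against BC4289. Several genes in these windows are therefore given below with their ratio against each strain. Outside them and outside the fosmid, 455 of 11960 genes were higher and 809 were lower.

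The 12 largest increases outside the fosmid and these windows included cuticle, lectin and neuropeptide genes. The cuticle collagen col-118 (IV:8848168-8849663, coordinates of the ce10 build here and below) had 310.3, 238 and 582 FPKM in the OP37 libraries, against 33.96, 67.5, 43.6 and 78.6 FPKM in SP117 and 40.0 and 36.2 FPKM in BC4289 larvae. The groups did not overlap, and the log2 ratio was 2.96 ± 0.35 (SE, adjusted p = 0.0021). The neuropeptide-like gene nlp-20 had 1162, 732 and 1486 FPKM in OP37, against 121 to 161 FPKM in SP117 and 138 and 152 FPKM in BC4289 larvae. Every OP37 library was thus more than 4 times the highest larval one (log2 ratio 2.89 ± 0.24, adjusted p = 0.000305). The cuticlin gene cut-4 (log2 ratio 3.004), the astacin protease gene nas-5 (2.96) and the ground-like gene grl-1 (2.90) were also higher, although grl-1 was no longer called without OP37 replicate 1 or BC4289 replicate 2 (highest adjusted p 0.0596). Among the 12 were also genes known only by their sequence names, Y46E12A.5 (4.66), F14D2.7 (3.35), T13F3.6 (3.15) and C36B7.5 (2.80), and nspb-4 (2.90) encodes a nematode-specific peptide.

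The C-type lectin gene clec-209 had 430.3, 351 and 79.2 FPKM in OP37, against 9.47, 6.16, 8.98 and 17.3 FPKM in SP117 and 42.7 and 17.6 FPKM in BC4289 larvae (log2 ratio 3.80 ± 0.56, adjusted p = 0.00441). OP37 replicate 3 was well below the other OP37 libraries but still above every larva. F56A4.2, at V:2459635-2460892, had 448, 364 and 82.0 FPKM in OP37, against 6.37 to 17.8 FPKM in SP117 and 44.1 and 18.3 FPKM in BC4289. Its values followed those of clec-209 in nearly constant proportion, so that reads may have been divided between the 2 genes, and they are taken here as 1 observation.

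On the lower side, the collagen gene col-176 had 15.6, 11.3 and 80.7 FPKM in OP37, against 994, 318, 528 and 126 FPKM in SP117 and 439 and 519 FPKM in BC4289 larvae (log2 ratio -4.13 ± 0.72, adjusted p = 0.00841). The saposin-like gene spp-23 (I:1018837-1019222) had 14.6, 34.6 and 20.1 FPKM in OP37, against 165 to 374 FPKM in SP117 and 239 and 305 FPKM in BC4289 (log2 ratio -3.60 ± 0.33, adjusted p = 0.000498). Neither gene overlapped between the groups. The remaining 10 of the 12 largest decreases were F54D12.4, F14F8.8, F57G8.7, pugs-11, rpl-37.2, Y49G5A.1, nssp-77, clc-11 (a claudin-like gene), nlp-4 and K09C6.9, with log2 ratios of -3.46 or below, apart from F54D12.4, which was listed at 0 in OP37 and for which no ratio is given.

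**Figure D2:**
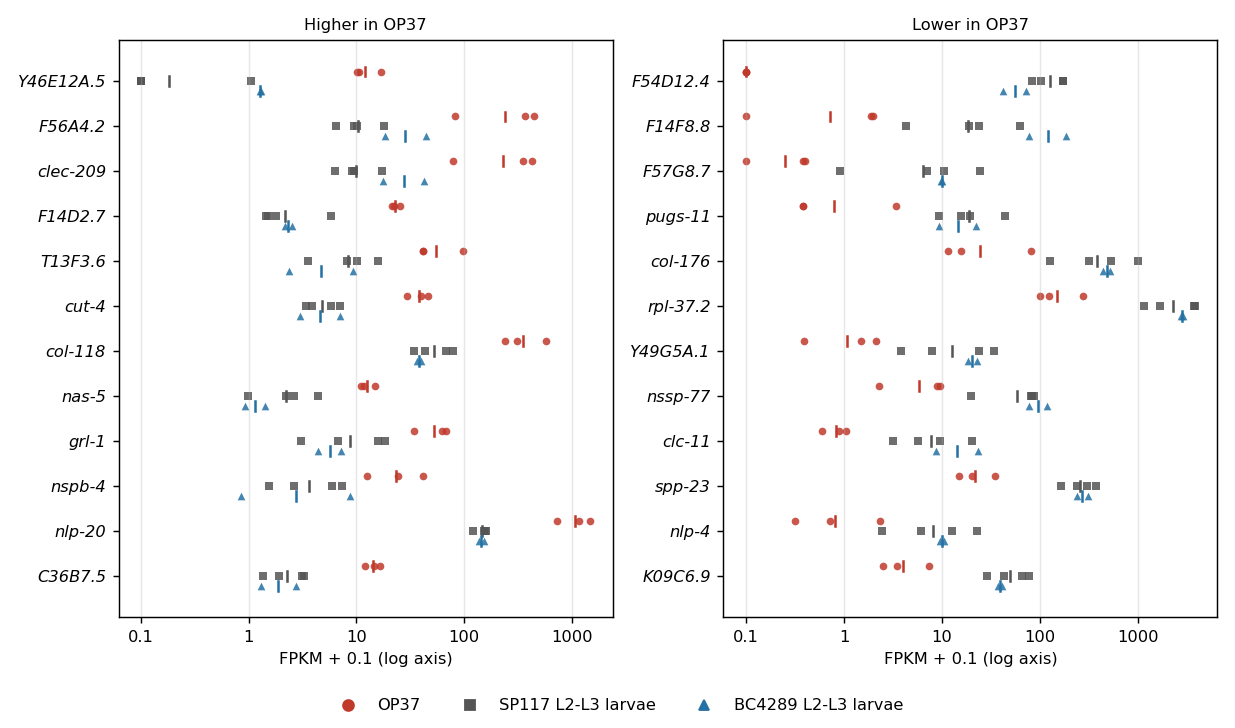
FPKM + 0.1 on a log axis for the 12 genes with the largest increases (left) and the 12 with the largest decreases (right) in OP37. Red circles are OP37 libraries, grey squares SP117 larvae, blue triangles BC4289 larvae, and short vertical bars the mean of each group on the log scale. Every red point lies beyond all larval points of its gene, as the rule for choosing these genes required.

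pha-4 itself had 75.5, 71.7 and 42.0 FPKM in OP37, against 25.8, 37.8, 21.7 and 33.9 FPKM in SP117 and 24.0 and 23.1 FPKM in BC4289 larvae (log2 ratio 1.22 ± 0.26, adjusted p = 0.0196). The groups did not overlap. The call was lost without OP37 replicate 1, OP37 replicate 2 or either BC4289 library (highest adjusted p 0.0823). The marker gene unc-119, also on the transgene, had 42.5, 38.4 and 41.0 FPKM in OP37, against 24.4, 39.6, 24.4 and 31.2 FPKM in SP117 and 22.3 and 21.6 FPKM in BC4289, and SP117 replicate 2 lay within the OP37 range (log2 ratio 0.68, adjusted p = 0.0681). Of the other 8 forkhead factors tested, fkh-7 was higher (log2 ratio 1.20, adjusted p = 0.0262) and let-381 was lower (-1.48, adjusted p = 0.0315). For fkh-7, OP37 replicate 2 at 94.35 FPKM lay below SP117 replicate 1 at 98.27 FPKM, and the call was lost with the length trend removed. let-381 was low throughout, with 0.926, 0.740 and 0.524 FPKM in OP37 against 1.48 to 2.88 FPKM in SP117. Of the 9 fits that left out a library, 3 lost the fkh-7 call and 5 the let-381 call. daf-16, the FoxO factor of insulin signalling, had a log2 ratio of 0.42 and was not called.

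Genes of the pharyngeal glands were lower. Of the 8 phat genes, which encode small secreted proteins of the pharyngeal gland cells, 5 were lower and none was higher, with a median log2 ratio of -1.42. phat-8 (II:12471740-12473024) had 50.3, 43.8 and 47.1 FPKM in OP37, against 258, 282, 286 and 170.5 FPKM in SP117 and 272 and 354 FPKM in BC4289 larvae (log2 ratio -2.55 ± 0.22, adjusted p = 0.000361). The 3 OP37 libraries lay within a narrow range, far below the lowest larva. phat-3 (-1.54), phat-7 (-1.39) and phat-6 (-1.45) also lay below all larvae. phat-3, phat-7 and phat-8 were called in all 9 fits that left out a library, and phat-6, in the part of X duplicated in SP117, was lower against each strain (-1.64 against SP117 and -1.26 against BC4289). phat-5 had 0.91, 2.81 and 15.7 FPKM in OP37, against 11.5 to 47.3 FPKM in SP117 and 25.7 and 32.6 FPKM in BC4289, and its call was lost in 7 of those 9 fits. phat-4, by contrast, had 381, 422 and 101 FPKM in OP37, against 156 to 487 FPKM in the larvae, and was not called (log2 ratio 0.04). hlh-6, a bHLH factor required for gland development, was low throughout, with 1.00, 0.91 and 0.67 FPKM in OP37, against 1.78 to 3.54 FPKM in SP117 and 1.60 and 3.21 FPKM in BC4289 (log2 ratio -1.49, adjusted p = 0.0324).

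Of 13 pharynx muscle and regulator genes, 4 were lower and none was higher, with a median log2 ratio of -0.77. The 4 were hlh-6, described above, 2 myosin genes and peb-1. myo-2, a myosin heavy chain of pharyngeal muscle, had 59.6, 45.0 and 31.8 FPKM in OP37, against 114, 132, 110.3 and 222 FPKM in SP117 and 63.1 and 79.5 FPKM in BC4289 larvae (log2 ratio -1.17 ± 0.29, adjusted p = 0.0328). No OP37 library overlapped the larvae, but myo-2 lies in the part of X duplicated in SP117 and its ratio was -1.65 against SP117 and -0.68 against BC4289. myo-1, the other pharyngeal myosin gene, lies on I outside the duplications and was lower too (-0.95, adjusted p = 0.0334), as was peb-1, which encodes a DNA-binding protein of the pharynx (-1.10, adjusted p = 0.0458). The troponin genes tnc-2 (-0.60) and tni-4 (-0.77), the homeobox gene ceh-22 (-0.71) and the T-box gene tbx-2 (0.91) were not called. No gene of this list was called without BC4289 replicate 1, and 2 were called lower and 1 higher without OP37 replicate 3. None of the 11 abu genes of the pharyngeal cuticle was called, but 6 were called higher without OP37 replicate 3. The median of the abu genes ran from -0.88 to 1.15 over the fits that each left out 1 library.

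Of 18 body wall muscle genes, 1 was called lower, the actin gene act-4, with 1627, 1535 and 1056 FPKM in OP37, against 2988 to 3991 FPKM in SP117 and 2967 and 2697 FPKM in BC4289 (log2 ratio -1.15 ± 0.20, adjusted p = 0.00838). This single call is 5.56% of the list, against 7.03% of all genes. The list had a median of -0.55, and all 3 OP37 libraries lay below all larvae for 7 of the 18 genes, against 9.35% of all genes. The main body wall myosin gene unc-54 was among these 7, with 1216, 1167 and 725 FPKM in OP37, against 1466 to 1771 FPKM in the larvae, and was not called (log2 ratio -0.60, adjusted p = 0.0916). With the length trend removed, 8 of the 18 genes were called lower, and with each library centred on its median 6 were. act-4 was not called on TPM, where the median of all genes moved, or after quantile normalization.

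Genes for secreted digestive and defence proteins were lower where they changed, with the exceptions named below. Of 18 cathepsin-type protease genes tested, 9 were lower and none was higher, with a median log2 ratio of -0.83. The cathepsin B-like gene cpr-5 had 338, 295 and 289 FPKM in OP37, against 784 to 1040 FPKM in SP117 and 697.5 and 853 FPKM in BC4289 larvae (log2 ratio -1.48 ± 0.18, adjusted p = 0.0022). cpr-9 (-1.40), cpr-4 (-1.20), cpr-8 (-1.08) and cpr-1 (-1.03) followed, with the aspartyl protease genes asp-6 (-1.05), asp-1 (-0.92), asp-3 (-0.84) and asp-5 (-0.83). asp-8 (1.41) and cpr-3 (0.78) lay above all larvae and were not called. Without BC4289 replicate 1, 2 genes of the list were called, after quantile normalization 3 were, and with the length trend removed 5 were. On TPM, 3 were called higher and 2 lower. The direction of asp-1 turned under quantile normalization.

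Of 31 lysozyme and saposin-like genes, 10 were lower and none was higher (median -0.58). spp-17, the neighbour of spp-23 on I, had 121, 129 and 260 FPKM in OP37, against 692 to 1003 FPKM in SP117 and 1043 and 1506 FPKM in BC4289 (log2 ratio -2.66 ± 0.28, adjusted p = 0.0012). lys-7 (-2.36), lys-8 (-1.71) and lys-1 (-1.60) encode lysozymes and were lower as well. Of 89 C-type lectin genes, 24 were lower and 3 were higher, with a median of -0.76. The 3 higher genes were clec-209, clec-233 (1.98) and clec-52 (1.28). The lowest was clec-45, with 0.907, 1.36 and 0 FPKM in OP37, against 0.748 to 12.2 FPKM in SP117 and 50.8 and 14.7 FPKM in BC4289, where SP117 replicate 4 overlapped OP37 (log2 ratio -4.42 ± 1.03, adjusted p = 0.0257). With the length trend removed, 10 lysozyme and saposin-like genes and 23 lectin genes were lower, so that these counts moved little with that trend. On TPM, where the median of all genes moved, 10 lectin genes were called higher and 15 lower. Without BC4289 replicate 2, 11 lectin genes were lower, and without BC4289 replicate 1, 6 lysozyme and saposin-like genes were.

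Other intestine genes gave few calls. Of 14 intestine genes, the 2 that were lower were cpr-1 and asp-1, and the median was -0.06. The GATA factor gene elt-2, which controls gut differentiation, had a log2 ratio of -0.38, the intermediate filament genes ifb-2 and ifc-2 had 0.16 and 0.40, and none of them was called.

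**Figure D3:**
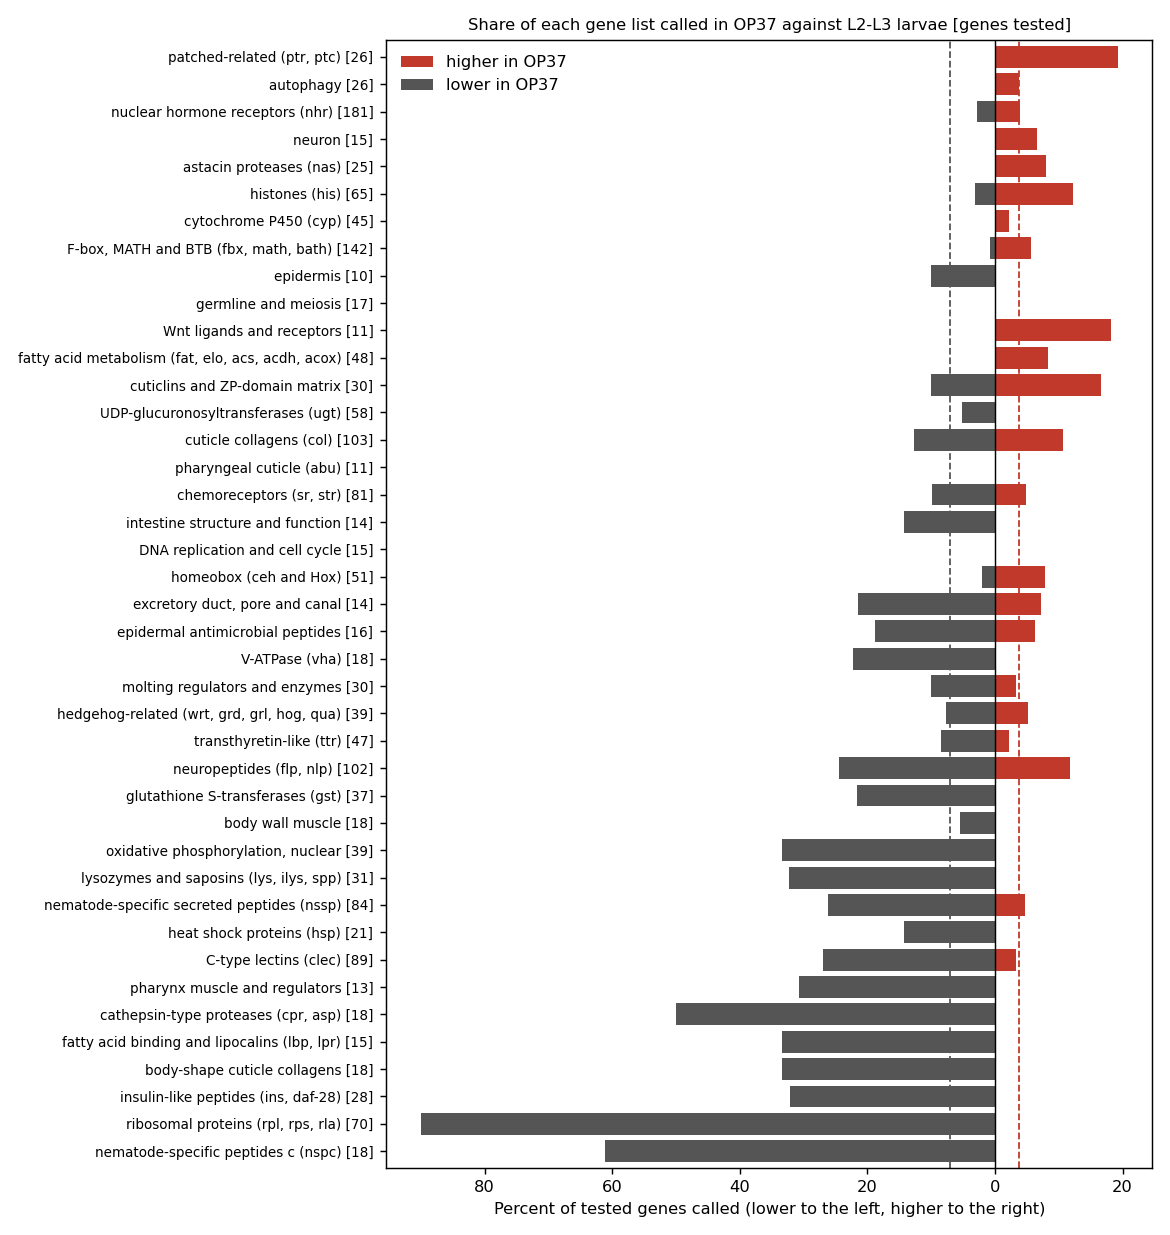
Percent of the tested genes of each list called higher (red, to the right) or lower (grey, to the left) in OP37, with the number tested in brackets, for lists with at least 10 tested genes. Dashed lines mark the 3.71% higher and 7.03% lower among all 12895 genes. Lists are ordered by their median log2 ratio, the highest at the top, and the ribosomal protein genes reach 90.0% lower.

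Cuticle genes changed in each direction. Of 103 col collagen genes, 11 were higher and 13 were lower, and the median was -0.01. The counts were 4 higher and 5 lower without BC4289 replicate 2, and 19 and 16 without OP37 replicate 3. Behind col-118, the higher genes were led by col-79 (log2 ratio 2.13), col-130 (2.09) and col-172 (2.05), and the lower ones by col-101 (-4.92), col-176 and col-96 (-3.44). Of 30 cuticlin and zona pellucida domain genes, 5 were higher, among them cutl-20 (1.87) with 75.9, 45.5 and 64.9 FPKM in OP37, against 12.2 to 29.8 FPKM in SP117 and 14.8 and 15.8 FPKM in BC4289. In the same list cut-3 (-2.56), noah-1 (-1.66) and noah-2 (-1.64) were lower, and 6 were lower with the length trend removed. cut-3 was low throughout, with 0.717, 0.331 and 0 FPKM in OP37, against 1.10 to 3.88 FPKM in SP117 and 1.43 and 1.96 FPKM in BC4289. The cut-3 call was lost in 8 of the 9 fits that left out a library. noah-1 had 103, 78.9 and 44.1 FPKM in OP37, against 108 to 282 FPKM in SP117 and 262 and 216 FPKM in BC4289 (adjusted p = 0.0215).

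Among the collagens that set body shape, 6 of 18 were lower and none was higher (median -1.04), and 5 of these 6 encode collagens of the annular furrows, the circular grooves of the cuticle. dpy-3 had 49.3, 71.5 and 46.1 FPKM in OP37, against 318, 320, 329 and 117 FPKM in SP117 and 318 and 263 FPKM in BC4289 larvae (log2 ratio -2.30 ± 0.35, adjusted p = 0.00503). dpy-9 (-2.22), dpy-10 (-1.74), dpy-2 (-1.71) and dpy-7 (-1.63) were lower in the same way, and in each of these 5 genes SP117 replicate 4 was the larval library closest to OP37. The other furrow collagen gene, dpy-8, had 61.9, 95.7 and 46.7 FPKM in OP37, against 67.2 to 320 FPKM in SP117 and 208 and 170 FPKM in BC4289, and was not called (log2 ratio -1.58, adjusted p = 0.0694). The non-furrow genes dpy-5 (-0.26), dpy-13 (-0.83), sqt-1 (-0.77), sqt-3 (-1.17) and rol-6 (-0.48) were not called, and their OP37 values overlapped the larvae. Without BC4289 replicate 1, 3 of the 18 genes were lower. The furrow genes were set apart after their values had been seen and the split was not tested. dpy-14, the other gene called lower, was near 0 in OP37, with 0.566, 0 and 0 FPKM, against 1.39 to 31.7 FPKM in SP117 and 3.50 and 4.32 FPKM in BC4289.

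Several genes of the molt and of the apical matrix were lower. lpr-3, a lipocalin of the apical matrix that lines epithelia before the cuticle is laid, had 108, 98.1 and 63.4 FPKM in OP37, against 546, 449, 428 and 169 FPKM in SP117 and 387 and 341 FPKM in BC4289 (log2 ratio -2.06 ± 0.36, adjusted p = 0.00895). The adjacent gene lpr-4 (-2.17), the leucine-rich repeat protein genes let-4 (-1.85) and sym-1 (-1.68) and the protease inhibitor gene mlt-11 (-1.42) were lower as well, although mlt-11 kept its call in only 2 of the 9 fits that left out a library. let-4 and sym-1 lie in the part of X duplicated in SP117 and were lower against SP117 (-2.08 and -1.81) and against BC4289 (-1.62 and -1.54). mlt-7, which encodes a peroxidase that crosslinks the cuticle, went the other way, with 94.4, 84.6 and 60.2 FPKM in OP37, against 18.2 to 59.0 FPKM in SP117 and 32.6 and 22.0 FPKM in BC4289 (log2 ratio 1.49, adjusted p = 0.0302). In all, 1 of 30 molting genes was higher (3.33%) and 3 were lower (10%), near the 3.71% and 7.03% of all genes. The gene nhr-23, for a nuclear receptor that drives molting, had a log2 ratio of -0.61 and was not called. Of 14 genes of the excretory duct, pore and canal, 3 were lower (lpr-3, let-4 and lpr-1) and 1 was higher, the zinc finger gene lin-48 (1.69). For lin-48, OP37 replicate 2 at 9.21 FPKM lay below SP117 replicate 4 at 9.98 FPKM. The lin-48 call was lost in 8 of the 9 fits that left out a library and with the length trend removed. Where the worms stood within the molting cycle was not measured and its part in these values was not tested.

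**Figure D4:**
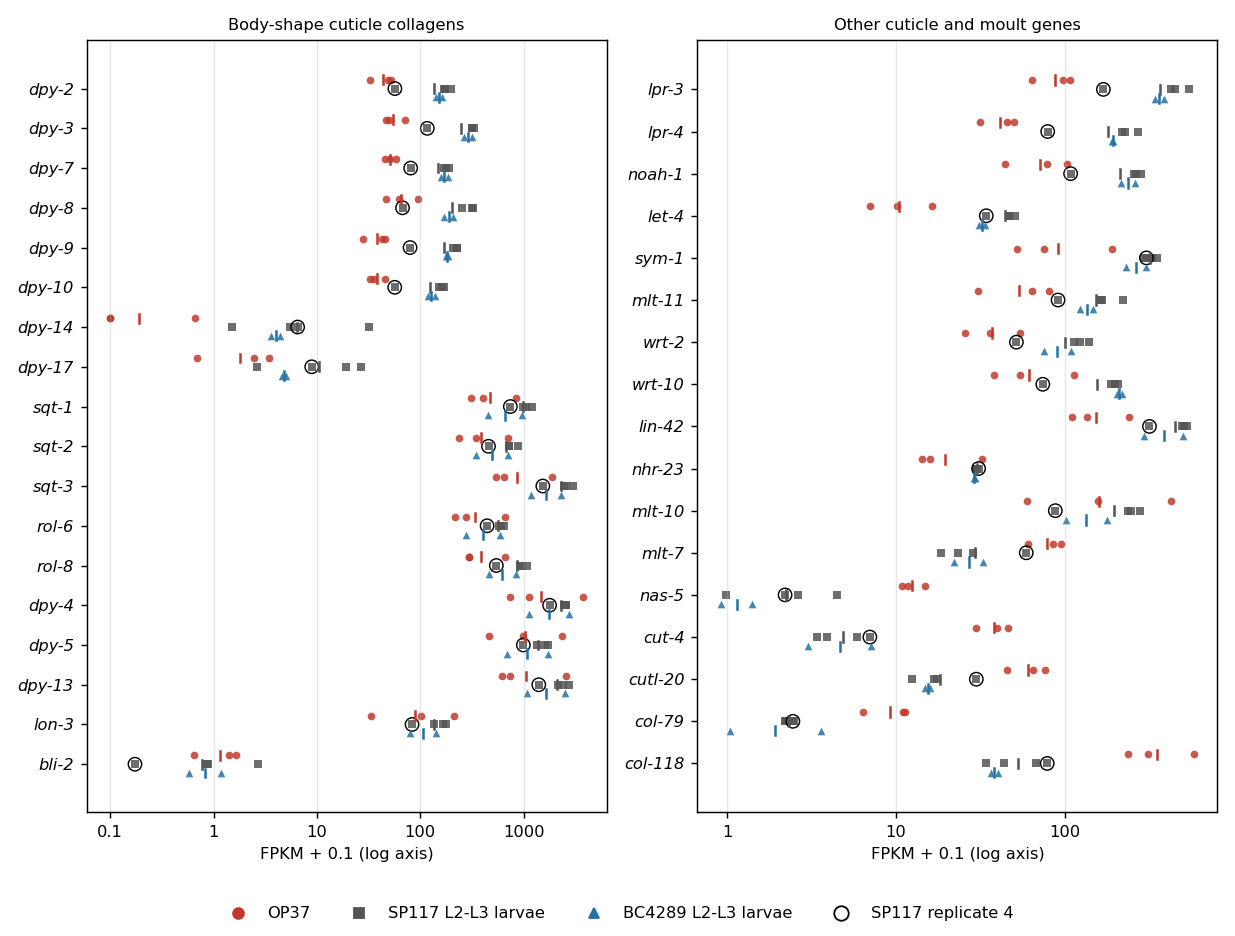
FPKM + 0.1 on a log axis for the 18 body-shape collagen genes tested (left) and for other cuticle and molting genes of the lists (right). Red circles are OP37 libraries, grey squares SP117 larvae, blue triangles BC4289 larvae, short vertical bars the group means on the log scale, and an open ring marks SP117 replicate 4. For dpy-3 that library had 117 FPKM, between the highest OP37 library at 71.5 and the next larva at 263.

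Among relatives of the hedgehog pathway, many of which act in the epidermis during molting, ligand genes were called at near the background share. Patched-like receptor genes were higher where they changed. Of 26 patched-related genes, 5 were higher and none was lower, with a median log2 ratio of 0.42. The median was 0.12 against SP117 and 0.52 against BC4289. ptr-3 had 12.6, 14.3 and 11.9 FPKM in OP37, against 3.13, 5.30, 3.06 and 4.70 FPKM in SP117 and 5.15 and 2.24 FPKM in BC4289 (log2 ratio 1.79 ± 0.31, adjusted p = 0.0079). ptr-12 (1.44), ptr-20 (1.42), ptr-23 (1.07) and ptr-13 (0.98) were also higher. ptr-3 was the only 1 of the 5 that was called in all 9 fits that left out a library, and only it was called without BC4289 replicate 2. Of 39 hedgehog-related ligand genes, grl-1 and grd-15 (1.75) were higher and wrt-10 (-1.55), wrt-2 (-1.37) and wrt-5 (-0.88) were lower. These are 5.13% and 7.69%, against 3.71% and 7.03% of all genes. Of 25 astacin protease genes, nas-5 and nas-30 (1.48) were higher, or 8%, against 3.71% of all genes, and none was lower.

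Among the patterning genes, the Wnt ligand genes lin-44 and egl-20 were higher. lin-44, expressed in the tail tip, had 55.8, 37.8 and 42.8 FPKM in OP37, against 7.96, 11.7, 6.71 and 10.8 FPKM in SP117 and 10.1 and 8.10 FPKM in BC4289 larvae (log2 ratio 2.29 ± 0.24, adjusted p = 0.00118). egl-20, expressed around the rectum, had 42.4, 35.2 and 55.9 FPKM in OP37, against 9.41, 10.8, 11.4 and 17.8 FPKM in SP117 and 13.2 and 13.5 FPKM in BC4289 (log2 ratio 1.78 ± 0.25, adjusted p = 0.00371). The lowest OP37 library was about 2 times the highest larva for egl-20 and 3 times for lin-44. The other Wnt genes tested, cwn-1 (0.42), cwn-2 (-0.43) and mom-2 (0.88), and the 6 receptor genes were not called, which left 2 of 11 genes higher. In the embryos of the series lin-44 had 5.82 to 13.2 FPKM and egl-20 3.34 to 10.97 FPKM, and in young adults they had at most 2.39 and 2.77 FPKM.

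Some posterior homeobox genes were also higher. nob-1, a Hox gene that patterns the posterior body, had 55.9, 30.2 and 41.8 FPKM in OP37, against 7.37, 8.36, 8.11 and 13.01 FPKM in SP117 and 8.98 and 11.6 FPKM in BC4289 (log2 ratio 2.10 ± 0.27, adjusted p = 0.00247). Its neighbour and paralog php-3 was higher by less (1.16, adjusted p = 0.0301) and was called in 4 of the 9 fits that left out a library. egl-5, the third Hox gene of this posterior type, had 24.5, 15.96 and 35.1 FPKM in OP37, against 6.43 to 18.9 FPKM in SP117 and 10.4 and 8.52 FPKM in BC4289, and was not called (1.27, adjusted p = 0.0507). The homeobox genes ceh-9 (2.51) and ceh-14 (1.79), a LIM homeobox gene of sensory and tail neurons, were higher, and ceh-24 was lower (-1.99). Over 51 homeobox genes, 4 were higher (7.84%) and 1 was lower (1.96%), against 3.71% and 7.03% of all genes. The median was -0.08. The Wnt and homeobox lists were made after the largest changes had been seen.

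Genes named for touch sensitivity included many that rose. Of 15 mec genes tested, 7 were higher (46.7%) and none was lower, the highest share of higher genes among 135 gene name families with at least 10 tested members, and the median log2 ratio was 0.72. Most mec genes act in the touch receptor neurons, whose thick microtubules and channel complex detect gentle touch. mec-17, a tubulin acetyltransferase gene, had 159, 112 and 136 FPKM in OP37, against 59.8, 78.3, 67.4 and 69.5 FPKM in SP117 and 63.5 and 65.9 FPKM in BC4289 larvae (log2 ratio 1.011 ± 0.19, adjusted p = 0.0108). The tubulin genes mec-7 and mec-12 were higher by 0.87 and 0.72, the channel subunit gene mec-10 by 1.49, the extracellular matrix genes mec-1 and mec-9 by 1.33 and 1.53, and mec-18 by 1.16. mec-10 had 5.46, 3.71 and 6.32 FPKM in OP37, against 1.51 to 2.29 FPKM in SP117 and 1.51 and 1.67 FPKM in BC4289. The LIM homeobox gene mec-3, which specifies these neurons, had a log2 ratio of 0.54 (adjusted p = 0.346), and the other channel gene mec-4, in the part of X duplicated in SP117, had 0.74 against BC4289 and 0.15 against SP117. mec-1 was the 1 member called without BC4289 replicate 1, and 8 were called without OP37 replicate 3. The mec and gcy families were picked for their counts, so no test was made of them.

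**Figure D5:**
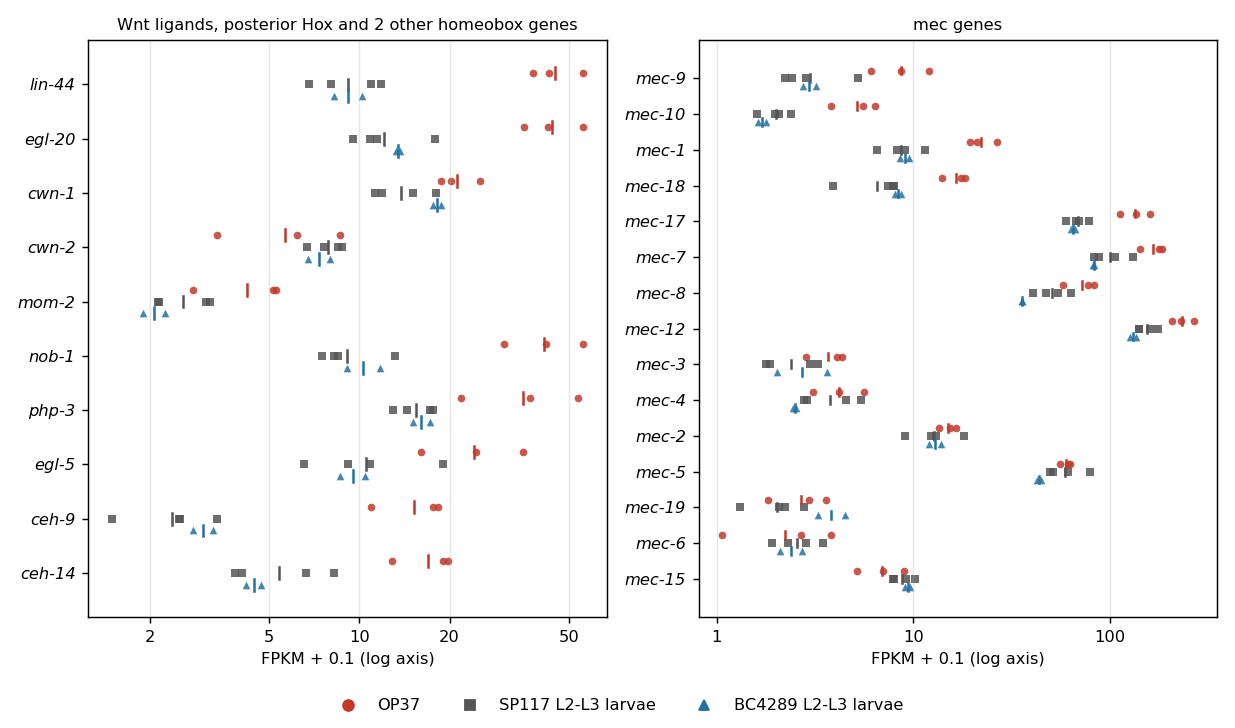
FPKM + 0.1 on a log axis for Wnt ligand, posterior Hox and 2 other homeobox genes (left) and for all 15 mec genes tested (right, ordered by log2 ratio). Red circles are OP37 libraries, grey squares SP117 larvae, blue triangles BC4289 larvae, and short vertical bars the group means on the log scale. The 3 OP37 libraries of lin-44, at 37.8 to 55.8 FPKM, lie above all larvae, the highest of which had 11.7 FPKM.

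The soluble guanylate cyclase genes, some of which sense oxygen in a few head and body neurons, included 3 that rose. gcy-32 (1.25), gcy-35 (1.28) and gcy-37 (1.18) were higher and gcy-36 had 0.74 and was not called, while none of the 6 receptor-type gcy genes tested was called. gcy-35 had 6.13, 5.49 and 6.48 FPKM in OP37, against 1.51 to 4.02 FPKM in SP117 and 2.27 and 2.69 FPKM in BC4289. All 3 calls were lost without BC4289 replicate 1. Of the 10 gcy genes tested, 3 had every OP37 library above all larvae and 3 had every OP37 library below them. Among all genes these shares were 6.55% and 9.35%. Without OP37 replicate 3, 1 gcy gene was called lower. Of the 15 general neuron genes, 1 was higher, the kinesin gene unc-104 that carries synaptic vesicle precursors, with 45.7, 31.6 and 30.7 FPKM in OP37, against 13.1 to 17.2 FPKM in SP117 and 13.1 and 14.02 FPKM in BC4289 (log2 ratio 1.31 ± 0.20, adjusted p = 0.00528). The median of that list was 0.27. snb-1 (0.21), rab-3 (0.26) and egl-3 (0.27), which serve synapses and peptide processing in most neurons, were not called.

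Neuropeptide genes changed in each direction, with 12 of 102 higher and 25 lower (median -0.37). Behind nlp-20, nlp-17 had 204, 151 and 287 FPKM in OP37, against 35.9 to 80.9 FPKM in SP117 and 46.6 and 53.4 FPKM in BC4289 (log2 ratio 2.07 ± 0.30, adjusted p = 0.00414). flp-34 (1.57), flp-20 (1.502) and flp-10 (1.43) were higher, and nlp-4 (-3.47), nlp-70 (-3.40), nlp-51 (-2.62), flp-13 (-1.64) and flp-1 (-1.39) were lower. nlp-63 was listed at 0 in all 3 OP37 libraries, against 4.24 to 10.7 FPKM in SP117 and 12.5 and 3.90 FPKM in BC4289. With the length trend removed 14 were higher and 22 lower, and the median was -0.09. Without BC4289 replicate 2, 10 were lower, without OP37 replicate 3, 36 were, and without BC4289 replicate 1, 5 were higher.

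The insulin-like peptide genes were lower where they changed. Of 28 tested, 9 were lower and none was higher, with a median of -1.14. ins-27 had 147, 126 and 238 FPKM in OP37, against 1004, 565, 675 and 686 FPKM in SP117 and 875 and 854 FPKM in BC4289 larvae (log2 ratio -2.26 ± 0.26, adjusted p = 0.00187). ins-35 (-3.13), ins-33 (-2.33), ins-10 (-2.27) and ins-7 (-2.06) followed, the last of which encodes an agonist of the DAF-2 insulin receptor. ins-35 differed between the larval strains as well, with 32.9 to 59.0 FPKM in SP117 and 111 and 150.5 FPKM in BC4289, and OP37 at 5.57, 11.1 and 11.8 FPKM lay below each. daf-28, another agonist, had 50.3, 112 and 8.57 FPKM in OP37, against 101 to 262 FPKM in the larvae, and was not called (-2.05, adjusted p = 0.0897). ins-17 lay above all larvae (0.83) without being called. With the length trend removed, 5 were lower and 1 was higher, and without BC4289 replicate 2, 4 were lower.

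The 18 nspc genes, which encode small nematode-specific peptides, had the lowest median log2 ratio, -2.81, of the 135 gene name families. All 11 of them between 12342886 and 14530139 bp of X were lower, with log2 ratios of -2.72 to -5.71. nspc-13 had 1.55, 1.58 and 3.75 FPKM in OP37, against 149.8, 100.5, 130.3 and 79.2 FPKM in SP117 and 115 and 123 FPKM in BC4289 (log2 ratio -5.71 ± 0.32, adjusted p = 4.9e-05). These genes lie in the part of X duplicated in SP117, and their ratios against BC4289, -5.76 for nspc-13 and -3.65 for nspc-18, stood beside -5.67 and -4.01 against SP117. The other 7 nspc genes, in a cluster near 8.53 Mb of X, were not called, with ratios of -1.08 to 0.65. Count and calls were the same in each of the 9 fits that left out a library and with the length trend removed. The copies within a cluster are alike in sequence, so that reads may have been divided among them, and single members are uncertain. Of the 84 nssp genes, another group of secreted peptides, 22 were lower and 4 higher (median -0.62). The number lower was 36 without OP37 replicate 3 and 12 without BC4289 replicate 2. Both lists were made after the values had been seen.

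Genes of the heterochronic pathway, which times larval stages, moved singly. lin-46, a gephyrin-like gene that acts in larval timing, had 31.6, 21.6 and 24.1 FPKM in OP37, against 6.28, 5.01, 5.69 and 3.49 FPKM in SP117 and 6.05 and 2.05 FPKM in BC4289 larvae (log2 ratio 2.57 ± 0.34, adjusted p = 0.00308). It was higher than in the embryos and young adults of the series too, which had at most 1.26 and 0.687 FPKM. lin-42, the worm relative of Period, whose level cycles with the molts, had 136, 241 and 110.4 FPKM in OP37, against 529, 492, 509 and 318 FPKM in SP117 and 500.2 and 297 FPKM in BC4289 (log2 ratio -1.44 ± 0.31, adjusted p = 0.0184). Its call was lost without OP37 replicate 1 or BC4289 replicate 1. lin-14 (0.24), lin-28 (-0.45), lin-29 (-0.12), lin-41 (0.18) and hbl-1 (0.05) were not called.

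Ribosomal protein genes were the list with the highest share of lower genes, and their count depended on scaling. Of 70 tested, 63 were lower and none was higher, and the median log2 ratio was -1.17. rps-21 had 1174, 1564 and 5871 FPKM in OP37, against 7563 to 11490 FPKM in SP117 and 15330 and 14640 FPKM in BC4289 (log2 ratio -2.42 ± 0.44, adjusted p = 0.0102). OP37 replicate 3 was nearest to the larvae without reaching them. The most extreme member was rpl-37.2, with 100, 122 and 272 FPKM in OP37, against 1139 to 3790 FPKM in SP117 and 2757 and 2889 FPKM in BC4289 (log2 ratio -4.08 ± 0.45, adjusted p = 0.00153). Its near relative rpl-37.1 was lower by less (-1.70). These genes are short, with a median span of 883 bp, and with the length trend removed 19 were lower (median -0.80). After quantile normalization 6 were lower (median -0.15), and without BC4289 replicate 2, 22. The 39 nuclear genes of oxidative phosphorylation had 13 lower and none higher (median -0.56), led by ucr-11 (-1.69) and cox-6C (-1.68). Of these 39, 6 were lower once the length trend was removed, 2 after quantile normalization and 2 without BC4289 replicate 2. Of 18 V-ATPase genes 4 were lower, and their median of -0.14 turned to 0.26 after quantile normalization. With the length trend removed 1 was lower, and without BC4289 replicate 1 none was. On TPM, 6 V-ATPase genes were called higher and none lower.

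Several stress and detoxification genes were lower. hsp-12.2, a small heat shock protein gene, had 64.1, 72.6 and 94.2 FPKM in OP37, against 355, 394, 410.4 and 405 FPKM in SP117 and 301 and 391.9 FPKM in BC4289 (log2 ratio -2.27 ± 0.19, adjusted p = 0.000359). sod-3, a mitochondrial superoxide dismutase gene, had 1.04, 1.13 and 2.10 FPKM in OP37, against 3.71 to 14.96 FPKM in SP117 and 9.43 and 18.1 FPKM in BC4289 (log2 ratio -2.79 ± 0.49, adjusted p = 0.00881). sod-3 lies in the part of X duplicated in SP117, with ratios of -2.40 against SP117 and -3.18 against BC4289. The sod-3 call was lost without BC4289 replicate 2. Of 21 heat shock genes 3 were lower (14.3%), of 7 superoxide dismutase and catalase genes 1 (14.3%), and of 37 glutathione S-transferase genes 8 (21.6%). Among all genes 7.03% were lower, so the first 2 lists exceed that share by few genes. The glutathione S-transferase genes were led by gst-24 (-2.25) and gst-12 (-2.20), and none was higher in the 3 lists. Without BC4289 replicate 1, 4 glutathione S-transferase genes were lower. Of 58 UDP-glucuronosyltransferase genes 3 were lower (5.17%, against 7.03% of all genes). Of 45 cytochrome P450 genes 1 was higher (cyp-34A2, 1.72), and of 26 autophagy genes 1 was higher (atg-2, 1.14). These are 2.22% and 3.85%, against 3.71% of all genes.

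In lipid metabolism, 4 of 48 genes were higher and none was lower. The acyl-CoA synthetase gene acs-7 had 131, 65.0 and 55.04 FPKM in OP37, against 15.4 to 31.5 FPKM in SP117 and 21.2 and 13.6 FPKM in BC4289 (log2 ratio 1.93 ± 0.34, adjusted p = 0.00881). The acyl-CoA oxidase gene acox-3 (1.61), acdh-6 (1.28) and acs-12 (0.69) were the others. No gene of this list was called without BC4289 replicate 2. Of 15 fatty acid binding and lipocalin genes, 5 were lower, 4 of them lpr genes. The nuclear hormone receptor nhr-144 had 17.3, 14.3 and 24.7 FPKM in OP37, against 3.60 to 4.31 FPKM in SP117 and 3.80 and 3.91 FPKM in BC4289 (log2 ratio 2.22 ± 0.22, adjusted p = 0.000802), within a family of 181 tested genes of which 7 were higher and 5 lower, near the background.

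The remaining lists gave few calls, to be read against 3.71% higher and 7.03% lower among all genes. Of 142 F-box, MATH and BTB domain genes 8 were higher and 1 was lower. Of 81 chemoreceptor genes 4 were higher and 8 lower, and of 47 transthyretin-like genes 1 was higher and 4 lower, or 4 and 1 with the length trend removed. Without BC4289 replicate 1, 1 gene of the F-box list and no chemoreceptor gene was higher. Of 16 antimicrobial peptide genes of the epidermis, nlp-33 was higher (1.21) and 3 were lower, among them cnc-2 (-2.64) and nlp-34 (-2.29). Of 10 epidermis genes 1 was lower, and of 15 DNA replication and cell cycle genes none was called. Of 65 histone genes 8 were higher and 2 lower (median 0.18), with a median span of 412 bp. With the length trend removed 18 were higher and 1 lower (median 0.89), without OP37 replicate 3 the counts were 6 and 7 (median -0.27), and without BC4289 replicate 1 none was called. Of the 8, his-28 and his-50 had identical values in every library and are not separate observations, and histone messages mostly lack the poly(A) tail that the libraries selected.

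A few genes were listed at 0 in OP37 alone. Of the genes tested, 9 were at 0 FPKM in all 3 OP37 libraries and above 0 in all 6 larval libraries, and no gene showed the reverse. F54D12.4 (II:1368096-1368306), which spans 211 bp, was at 0 in OP37, against 172, 170, 101 and 82.0 FPKM in SP117 and 71.0 and 42.1 FPKM in BC4289 larvae. Among the 20 other mRNA-seq libraries of the series its lowest value was 42.1 FPKM and its highest 755 FPKM. The calmodulin-like gene cal-6, on X, was at 0 in OP37, against 6.04 to 26.7 FPKM in SP117 and 5.44 and 5.15 FPKM in BC4289, and it too was above 0 in all 20 other libraries, the lowest at 3.14 FPKM. In the whole table of 20327 genes, 11 were at 0 in all OP37 libraries and above 0 in all 20 others, and none was the reverse. Genes with an estimate marked as failed had been left out, so these genes carried no such mark. Why they were listed at 0 was not tested. No fold is printed for them, although the fit across all genes ranked them by a ratio that depends on the added 0.1.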

How the data were processed

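Worm mRNA was sequenced from poly(A)-selected, strand-specific libraries. Per the study's methods, reads were aligned with HISAT2 2.2.1 to ce10 (WS220), and the authors computed FPKM per gene with Cufflinks 2.2.1. The deposited TPM column was used as an alternative, and how the authors derived TPM is not given in the sources used here. Reads per gene were not used, so counting precision is unknown beyond the relative depth. Of 20390 identifiers, 97.5% matched a RefSeq gene name. 51 genes with a failed estimate and 12 mitochondrial genes were left out. limma 3.58.1 (R 4.3.3, trend option) was fitted to log2(FPKM + 0.1) after a filter that kept genes averaging 1 FPKM or more over the 9 libraries, and p-values were adjusted over all genes by Benjamini-Hochberg. Fold changes are on that scale, which understates the change of low genes. In simulated data for this comparison, over 12895 genes, 16, 156 and 178 of 200 changed genes were recovered at log2 changes of 1, 2 and 3. Whether replicates came from separate cultures is not stated, so p-values measure the spread between these libraries, which may be technical. Named genes were the 12 largest changes in each direction with non-overlapping libraries and a mean FPKM of at least 10 in the higher group, outside the fosmid and duplicated windows, and the 2 highest and 2 lowest called genes of each list, with pha-4, 3 other fosmid genes that are not described here, unc-119 and unc-3. Other genes named were chosen after their values were seen. The members and lists were chosen with earlier results of these data known. Alternatives covered TPM, quantile normalization, median centring, pseudocounts of 0.01 and 1, filters, each strain alone as reference, all 23 mRNA-seq libraries in one fit, leaving out each library, a replicate block and removal of the length trend. No sequences are shown.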

Additional observations from a re-analysis of the deposited data

Results flagged for a closer look

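In the group of 4 SP117 larvae, 1 library lay far from the other 3 for 12 named genes, 10.1% of those tested in this way. The rule would flag about 1 in 20 for normally distributed values in independent genes. FPKM values of related genes need not meet this, so no excess over chance is claimed. SP117 replicate 4 was the lowest for dpy-3 (116.8 FPKM, others 318 to 329), noah-1 (108.2 FPKM, others 257 to 282) and wrt-10 (74.0 FPKM, others 189 to 206), all cuticle or epidermal genes that were also lower in OP37. It was the highest for F14D2.7 (5.709 FPKM, others 1.35 to 1.70) and Y46E12A.5 (0.9394 FPKM, others listed at 0), which were higher in OP37. SP117 replicate 2, the shallowest library, was the lowest for nssp-77 (19.56 FPKM, others 81.3 to 86.3) and hlh-6 (1.784 FPKM, others 3.25 to 3.54), and the highest for cyp-34A2 (2.131 FPKM, others 0.659 to 0.862) and srbc-15 (0.8881 FPKM, others listed at 0). SP117 replicate 3 was the highest for dpy-14 (31.7 FPKM, others 1.39 to 6.402), nlp-63 (10.67 FPKM, others 4.24 to 5.24) and ttr-50 (11.16 FPKM, others 2.38 to 3.86).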

How the results depend on the processing

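Of 117 named genes that were called, 116 kept their direction, and 51 also their call, under every alternative that could be run for them, which was 20 to 22 of 22, since a stricter filter or the removal of the windows left some genes out. The exception was asp-1, whose log2 ratio turned to 0.10 after quantile normalization. unc-3, which was not called, turned to 0.087 on TPM. It lies in the part of X duplicated in SP117, with ratios of -1.03 against SP117 and -0.06 against BC4289. Higher and lower counts were 478 and 907. With BC4289 larvae alone as reference they were 196 and 529, with SP117 larvae alone 284 and 567, on TPM 4039 and 380, with all 23 libraries in one fit 774 higher, and with the replicate block 970 higher. Leaving out each library in turn gave 101 to 1433 higher and 265 to 1197 lower genes. The cause of these shifts was not tested. The replicate numbers did not pair the libraries: same-numbered libraries of OP37 and larvae correlated at -0.26 to 0.07 in their deviations from group means. The block gave 1038 lower genes, and 48.3% of its calls were higher. Changes of log2 1 were mostly missed in simulated data.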
